A study of Mus musculus with 6 samples.

Results

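Death receptor signalling by TNF and TRAIL was examined through 10 genes in monocytes and macrophages from mouse bone marrow: the ligands Tnfsf10 and Tnfsf12, the receptors Tnfrsf10b, Fas, Tnfrsf1a and Tnfrsf1b, and the intracellular proteins Ripk1, Fadd, Casp8 and Cflar. The genes were named for their place in the pathway, with earlier results of these data known, and matched by symbol to the annotation of the array. Of the 10, 9 had at least 1 named probe, 27 probes in all among the 45281 of the array, and Ripk1, a kinase of the receptor complexes, matched no named probe and was not analysed here. The samples were 3 mice injected intravenously with cells of MEC1, an established human line of chronic lymphocytic leukaemia, and 3 untreated control mice. All 6 were BALB/c Rag2-/-γc-/- animals of 11 weeks, sampled at day 21, early in the leukaemia. Mice of this genotype lack T, B and NK cells of their own, while the MEC1 mice carried the injected human cells. Whether RNA of the human cells reached the mouse probes was not tested. The cells were purified with magnetic beads, and each mouse gave 1 single-colour bead array. The MEC1 mice are D, E and F and the controls A, B and C, and triplets of values follow that order.

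Death receptors are surface proteins of the TNF receptor family with a cytoplasmic death domain. When TRAIL (encoded by Tnfsf10) or Fas ligand binds its receptor, the adaptor FADD recruits caspase-8, which starts apoptosis unless the caspase-8 homologue c-FLIP, encoded by Cflar, holds it in check. TNF receptor 1 first assembles a complex around the kinase RIPK1 that activates NF-kappaB and survival genes, and kills only when that complex is disturbed. Macrophages are a main source of TNF and themselves carry both TNF receptors.

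The arrays detected 15545 to 16976 probes each, by a detection p-value under 0.05 in the deposited table, and the test took in the 16460 probes that 3 or more of the 6 arrays detected. MEC1 arrays were dimmer, with median raw intensities of 70.7 to 87.6, against 114 to 131 on control arrays. All values below are therefore normalized log2 intensities, in which arrays share 1 distribution, unless they are called raw. Between pairs of MEC1 mice, Pearson's r over the tested probes was 0.923 to 0.967, and between pairs of control mice 0.983 to 0.991. Mouse D had the lowest of these, 0.923 with E and 0.933 with F. Between a MEC1 mouse and a control mouse, r was 0.926 to 0.971, much the same range as among MEC1 mice. All 10 monocyte and macrophage markers with a probe were detected on all 6 arrays, Csf1r and Cd14 among them. Markers of other marrow cells were bright too: 12 of 13 erythroid, 12 of 14 neutrophil and 4 of 7 eosinophil markers with a probe were detected on all 6 arrays. The summed signal of the erythroid markers, as log2, was 16.36 to 17.02 in MEC1 mice and 17.26 to 17.55 in control mice, and mouse E was the lowest. That of the neutrophil markers was 17.51 to 17.53 in MEC1 mice and 17.32 to 17.51 in control mice. That of the monocyte and macrophage markers was 14.64 to 14.88 in MEC1 mice and 14.89 to 14.93 in control mice. Of the B cell markers, 1 of 6 with a probe, Cd79b, was detected on all 6 arrays and 3, with Ms4a1 and Pax5 among them, on none. Of the T and NK cell markers, 3 of 9 with a probe (Cd3d, Nkg7 and Prf1) were detected on all 6 arrays and 5, with Cd3e and Ncr1 among them, on none. Their summed signal, over 4 tested genes, was 12.02 to 12.27 in MEC1 mice and 11.70 to 12.00 in control mice, so that every MEC1 mouse lay above every control mouse. The erythroid sum and, narrowly, the monocyte and macrophage sum were lower in every MEC1 mouse than in every control mouse. The neutrophil sum was narrowly higher in every MEC1 mouse. The part of these other cells in the values below was not tested, and in such bulk samples fewer cells of a type and less RNA per cell cannot be told apart.

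Of the 27 probes of the 9 genes, 16 probes of 7 genes passed the detection filter, and none of the 16 passed limma's test at an adjusted p under 0.05, at which 1.54% of all tested probes were called, 0.869% higher and 0.668% lower in MEC1 mice. At an unadjusted p under 0.05 there were 3, the probe of Tnfrsf10b, 1 of Casp8 and 1 of Fadd, against 19.8% of all tested probes. The median change of the 16 probes was 0.24 on the log2 scale, against -0.02 over all tested probes, with 9 above 0 and 7 below. The 3 MEC1 mice lay above the 3 control mice at 6 probes, those of Tnfrsf10b and Cflar, both of Casp8 and 2 of Fadd, and below them at none. Over all tested probes the MEC1 mice lay above at 14.4% and below at 13.3%, so that the groups were apart at 27.7%. Probes of 1 gene share its RNA, and the 6 probes stand for 4 genes; by its brightest probe, 15% of all tested genes lay above and 14% below.

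**Figure D1:**
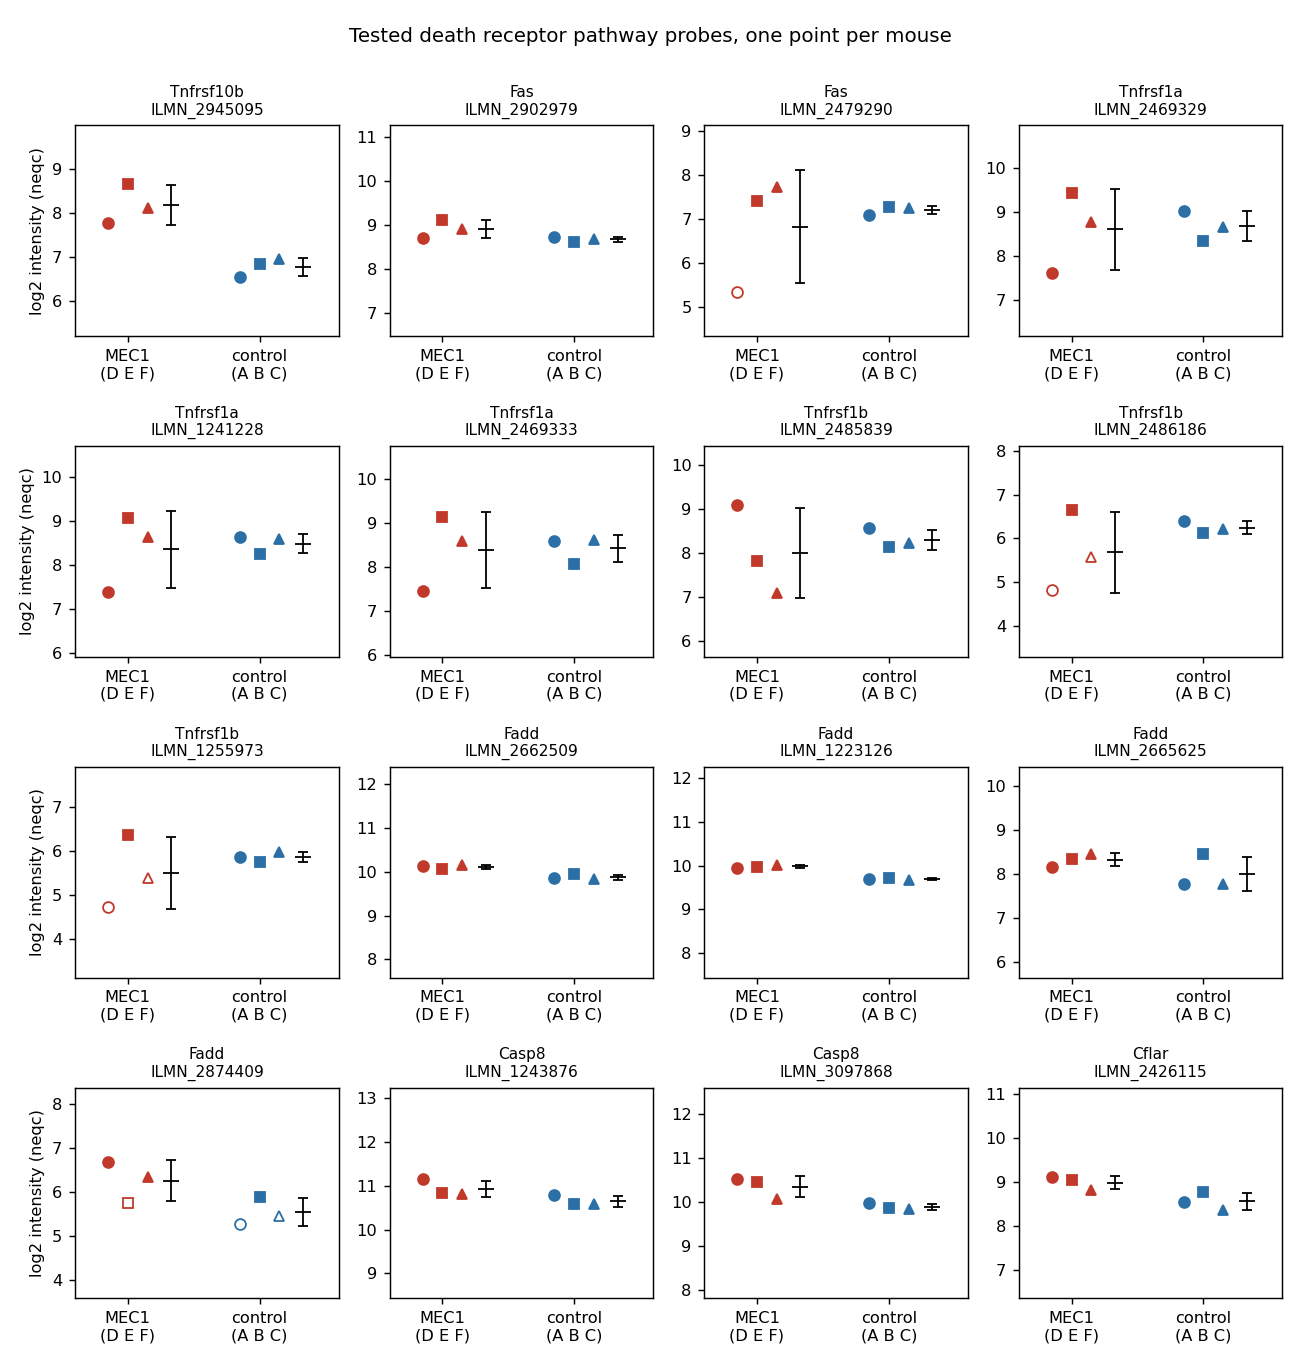
Normalized log2 intensity of the 16 tested probes, 1 panel per probe, with MEC1 mice D, E and F in red and controls A, B and C in blue (circle, square and triangle in that order); open symbols were not detected, the bars are mean ± SD (n = 3), and each panel spans the same range. MEC1 mice lie above control mice for Tnfrsf10b, while mouse D lies far below E and F for Tnfrsf1a and for 1 probe of Fas.

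**Figure D2:**
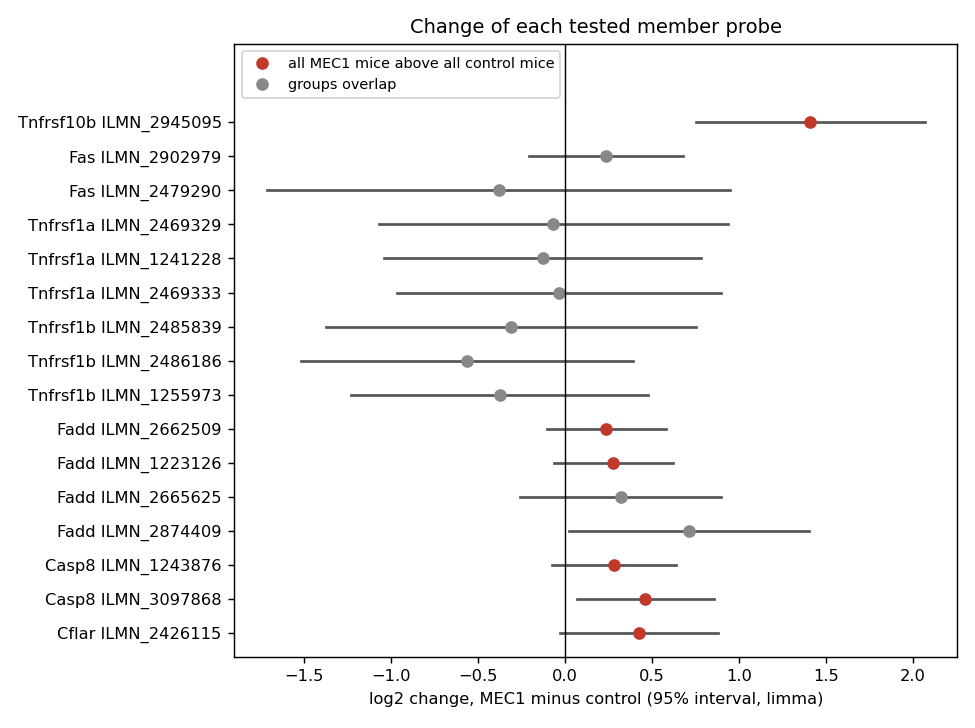
Log2 change of each tested probe, MEC1 minus control, as a point with its 95% interval from limma; red points mark probes at which all 3 MEC1 mice lay above all 3 control mice. No probe passed the test, and the interval is widest for the second probe of Fas, at -1.71 to 0.95.

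The ligand genes of the set gave almost no signal in either group. Neither probe of Tnfsf10, which encodes TRAIL, was tested. The first gave log2 intensities of 4.69, 5.21 and 5.02 in the MEC1 mice, against 4.70, 4.68 and 4.81 in the control mice, and it was not well above background on any array. The second gave 5.61, 5.03 and 5.18 in the MEC1 mice and 5.76, 5.54 and 5.66 in the control mice, and was detected only in control mouse A, with a detection p-value of 0.0491. The single probe of Tnfsf12, which encodes TWEAK, was detected on no array, at 4.65, 4.85 and 4.93 in MEC1 mice and 4.74, 4.78 and 4.62 in control mice. No level or change of these 2 ligands could therefore be given. Fasl, the gene of Fas ligand, was likewise not well above background on any array.

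Tnf itself, which is no member of the set but the ligand of both TNF receptors, was the called gene of the pathway. Its brighter probe gave 10.68, 10.95 and 10.92 in the MEC1 mice, against 9.99, 10.06 and 10.10 in the control mice, which differ by 0.80 ± 0.15 (SE; adjusted p = 0.0426). The dimmer probe gave 10.27, 10.65 and 10.43 in the MEC1 mice and 9.48, 9.51 and 9.57 in the control mice, a change of 0.94 ± 0.17 (SE; adjusted p = 0.0343). The groups did not overlap at either probe, and the lowest MEC1 mouse was D at both. The call of the brighter probe was lost in 5 of the 6 fits that left out 1 mouse, with adjusted p-values of 0.0738 to 0.217, and held without mouse D (0.0112). Under scaling of the arrays to a common median its change was 0.28 (adjusted p = 0.522), while the median of all tested probes moved to -0.48.

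Among the receptors, Tnfrsf10b came closest to a call. It encodes DR5, the mouse's only TRAIL receptor with a death domain. On probe ILMN_2945095 it lay at 7.77, 8.66 and 8.11 in the MEC1 mice, against 6.53, 6.83 and 6.94 in the control mice. Every MEC1 mouse lay above every control mouse, and mouse D was the lowest of the MEC1 mice. The means were 8.18 ± 0.44 in MEC1 mice and 6.77 ± 0.21 in control mice (SD, n = 3 each), with a difference of 1.41 ± 0.29 (SE; 95% interval 0.75 to 2.07), and the adjusted p of 0.0544 missed the threshold. The raw intensities of this probe, which include background, were 233, 233 and 266 in MEC1 mice, against 229, 234 and 243 in control mice. The difference thus depends on the level relative to the other probes of each array and on the background correction. With no background correction it was 0.99 (adjusted p = 0.066). It kept its sign under median scaling, at 0.83 (adjusted p = 0.0989). It passed without mouse D (1.58, adjusted p = 0.0077), with arrays weighted by their quality (1.40, adjusted p = 0.0156) and with no detection filter (adjusted p = 0.0467). In that order, these fits called 6.84%, 3.53% and 0.607% of all tested probes, against 1.54% as reported. Averaging the probes of each gene left the 1 tested probe of Tnfrsf10b and its change as they were. In that fit over 9089 genes the adjusted p was 0.0328. Leaving out any mouse other than D gave adjusted p-values of 0.0825 to 0.256. The other 4 probes of Tnfrsf10b were detected on no array, so no second probe bears on the change.

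Fas, the receptor of Fas ligand, was measured by 2 of its 4 probes, and they differed in mouse D. The brighter one gave 8.69, 9.11 and 8.91 in MEC1 mice and 8.72, 8.62 and 8.67 in control mice. Its log2 change was 0.23 ± 0.20 (SE; 95% interval -0.21 to 0.68; adjusted p = 0.526), and mouse D lay among the control mice. The dimmer one gave 5.35, 7.41 and 7.74 in MEC1 mice, with mouse D not detected, and 7.10, 7.28 and 7.26 in control mice. Its change of -0.38 ± 0.58 (SE; adjusted p = 0.738) rested on mouse D and was 0.35 without that mouse. The other 2 probes of Fas were detected on no array.

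Tnfrsf1a encodes TNF receptor 1, the TNF receptor with a death domain, and its 3 probes ordered the MEC1 mice alike. The brightest gave 7.61, 9.43 and 8.77 in the MEC1 mice, against 9.01, 8.34 and 8.66 in the control mice. The other probes gave 7.38, 9.07 and 8.63, and 7.46, 9.15 and 8.60, in MEC1 mice, against 8.63, 8.25 and 8.58, and 8.61, 8.08 and 8.62, in control mice. At each of the 3 probes mouse D was the lowest and mouse E the highest of the 6 mice. The spread in MEC1 mice was 0.86 to 0.92 (SD, n = 3), against 0.21 to 0.34 in control mice, and the changes, in the order of the probes above, of -0.07, -0.13 and -0.03 had adjusted p-values of 0.877 to 0.970. The 95% interval of the brightest probe ran from -1.07 to 0.94, so the values are compatible with changes in either direction within that range. Without mouse D the 3 changes were 0.35 to 0.43 and did not pass.

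Tnfrsf1b encodes TNF receptor 2, which has no death domain, and its 3 probes disagreed on the order of the MEC1 mice. The brightest gave 9.10, 7.83 and 7.09 in the MEC1 mice, with mouse D the highest of all 6 mice, against 8.57, 8.14 and 8.23 in the control mice. The other probes put mouse D lowest and mouse E highest, at 4.82, 6.65 and 5.58, and at 4.73, 6.35 and 5.38, in MEC1 mice, against 6.40, 6.11 and 6.21, and 5.87, 5.75 and 5.97, in control mice. Both of these dimmer probes were detected in mouse E alone of the MEC1 mice and in all 3 control mice. The changes were -0.31 ± 0.46, -0.56 ± 0.42 and -0.37 ± 0.38 (SE), with adjusted p-values of 0.734, 0.476 and 0.601. The positions of the probes in the transcripts were not analysed here, so which transcript forms each probe reads is not known.

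The adaptor, the caspase and its inhibitor had positive estimates at every tested probe in the normalized values. Fadd, the adaptor that joins death receptors to caspase-8, gave 10.13, 10.06 and 10.15 in MEC1 mice and 9.85, 9.94 and 9.83 in control mice at its brightest probe, a change of 0.24 ± 0.15 (SE; adjusted p = 0.399). The second probe lay at 9.95, 9.97 and 10.02 in MEC1 mice and 9.70, 9.73 and 9.68 in control mice, a change of 0.28 ± 0.15 (SE; adjusted p = 0.334). The SD within a group was 0.02 to 0.06 at these 2 probes (n = 3). The groups overlapped at the other 2 probes of Fadd, with changes of 0.32 and 0.71 that did not pass (adjusted p = 0.504 and 0.241), and the last of them was detected on 3 of the 6 arrays.

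Casp8, the initiator caspase, at probe ILMN_1243876 gave 11.14, 10.83 and 10.82 in MEC1 mice and 10.79, 10.57 and 10.58 in control mice. Its change there was 0.28 ± 0.16 (SE; 95% interval -0.07 to 0.64; adjusted p = 0.344). The second probe gave 10.53, 10.45 and 10.08 in MEC1 mice and 9.97, 9.86 and 9.85 in control mice, a change of 0.46 ± 0.17 (SE; 95% interval 0.07 to 0.85; adjusted p = 0.197). Cflar was measured by 1 of its 3 probes, at 9.11, 9.04 and 8.82 in MEC1 mice and 8.55, 8.76 and 8.37 in control mice, a change of 0.43 ± 0.20 (SE; 95% interval -0.03 to 0.88; adjusted p = 0.275). The remaining 2 probes of Cflar were detected on no array. MEC1 mice lay above control mice at both probes of Casp8 and at this probe of Cflar. Under median scaling the sign turned at both probes of Casp8, at that of Cflar and at the 3 brightest of Fadd, with changes of -0.31 to -0.07, each of them above the shift of -0.48 of all tested probes. The estimates of these 3 genes are thus relative to the other probes of the array, and none passed the test.

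**Figure D3:**
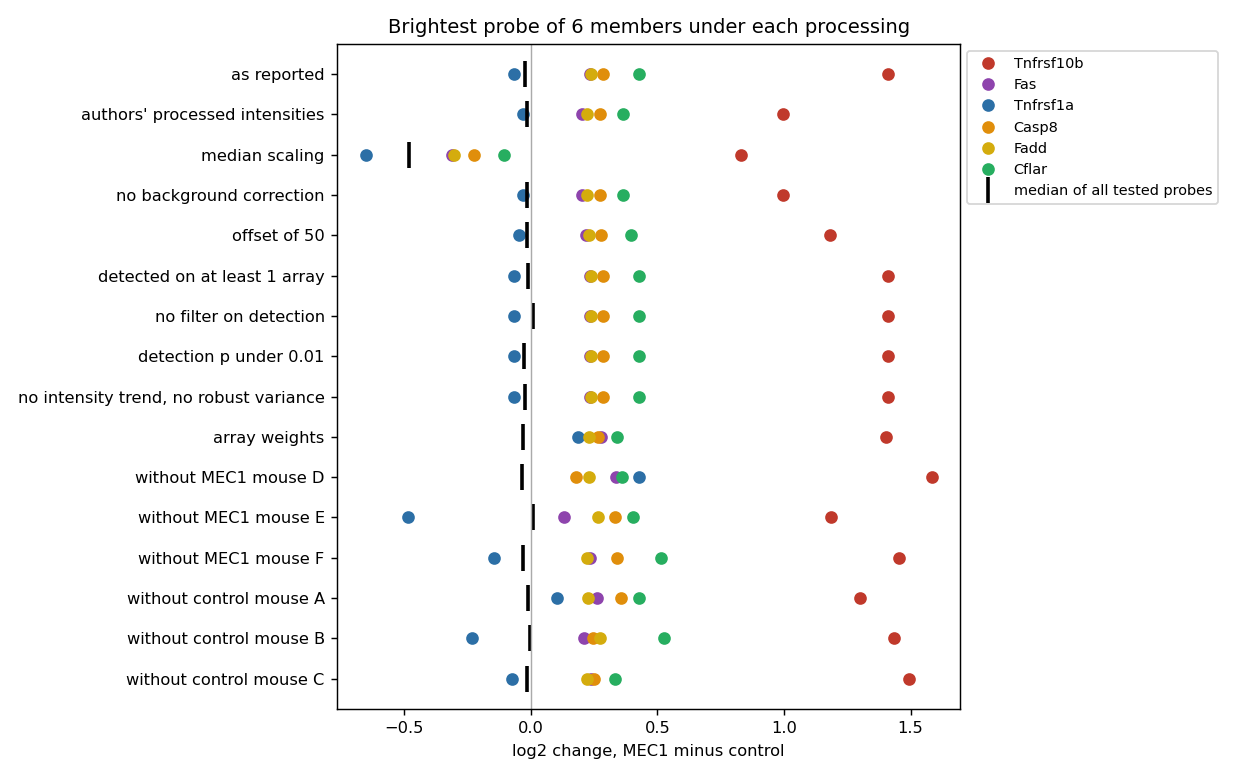
Log2 change, MEC1 minus control, of the brightest probe of 6 members (coloured points) under each processing, with the median of all tested probes as a black bar. Tnfrsf10b is the farthest to the right in every row, at 0.83 to 1.58, and Tnfrsf1a moves between -0.65 and 0.43 with the choice of arrays and scaling.

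The promoters of the 3 signalling genes with positive estimates are printed with that of Tnf, the called ligand, to show which motifs they hold. RefSeq windows were matched for 8 of the 10 members, all but Tnfrsf10b and Tnfsf12. Sequences are those of RefSeq on GRCm38.p6, from 250 bases before to 50 bases after an annotated start, read 5′ to 3′ on the strand of the gene. They lie at chr7:144582392-144582691 on the minus strand (Fadd), chr1:58802252-58802551 on the plus strand (Casp8), chr1:58711241-58711540 on the plus strand (Cflar) and chr17:35201958-35202257 on the minus strand (Tnf). The window of Casp8 lies inside that gene, whose first base is chr1:58795233, so its outermost start was not searched. Capitals mark matches to the motifs searched.
Fadd: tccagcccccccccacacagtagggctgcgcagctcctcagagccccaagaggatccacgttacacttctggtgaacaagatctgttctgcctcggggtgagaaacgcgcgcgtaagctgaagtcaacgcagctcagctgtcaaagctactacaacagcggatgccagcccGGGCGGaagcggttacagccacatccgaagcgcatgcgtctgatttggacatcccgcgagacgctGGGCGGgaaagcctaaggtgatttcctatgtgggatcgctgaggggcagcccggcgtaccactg
Casp8: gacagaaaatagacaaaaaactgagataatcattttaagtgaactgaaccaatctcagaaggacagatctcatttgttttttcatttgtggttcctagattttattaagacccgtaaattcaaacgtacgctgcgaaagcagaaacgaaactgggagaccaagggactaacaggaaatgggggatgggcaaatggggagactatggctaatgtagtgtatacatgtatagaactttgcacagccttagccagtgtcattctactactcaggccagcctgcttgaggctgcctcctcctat
Cflar: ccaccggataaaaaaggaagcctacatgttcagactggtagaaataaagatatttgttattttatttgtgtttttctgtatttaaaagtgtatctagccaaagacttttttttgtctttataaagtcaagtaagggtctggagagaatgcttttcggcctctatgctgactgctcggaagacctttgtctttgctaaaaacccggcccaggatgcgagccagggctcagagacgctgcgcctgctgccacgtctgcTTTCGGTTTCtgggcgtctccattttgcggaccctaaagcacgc
Tnf: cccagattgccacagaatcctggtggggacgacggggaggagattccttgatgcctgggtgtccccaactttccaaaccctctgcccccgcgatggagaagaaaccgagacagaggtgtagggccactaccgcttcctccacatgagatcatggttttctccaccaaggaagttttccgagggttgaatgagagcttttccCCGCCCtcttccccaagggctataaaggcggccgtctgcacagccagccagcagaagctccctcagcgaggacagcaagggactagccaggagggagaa
On both strands, the search covered the NF-kappaB site, the STAT site GAS (TTCNNNGAA), the interferon-stimulated response element ISRE and the GC box (GGGCGG). Fadd held 2 GC boxes and Tnf held 1, Cflar held 1 ISRE, and Casp8 held no match in the window printed. Of all 32851 such windows of RefSeq genes, 35.7% held a GC box, 3.44% an ISRE, 8.3% a GAS and 8.46% an NF-kappaB site. No marked matches overlapped each other. The 3 signalling genes share none of these motifs in these windows, and a match is only a description of the letters. Among the receptors, the window of Fas held 1 GAS and 2 GC boxes, that of Tnfrsf1a 1 GAS, and that of Tnfrsf1b 1 GAS, 1 ISRE and 2 GC boxes.

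The rest of the pathway was read from 6 lists of 101 genes, of which 94 had a named probe and 64 were tested. Of the 64, limma called 1 higher and none lower, against 1.74% of all tested genes called, 0.946% higher and 0.792% lower. The median change was -0.02, against -0.00 over all tested genes. The called gene was Tnf, from 5 tested ligands of the family. The others did not pass. Tnfsf13b, the B cell survival factor BAFF, gave -0.55 ± 0.22 (SE; adjusted p = 0.212) at its brighter tested probe, with every MEC1 mouse below every control mouse. At its dimmer tested probe, with a change of -0.54, the groups overlapped. Tnfsf9 gave 0.37. Tnfsf14 gave 0.20 at its brightest probe and 0.44 and -0.17 at its other tested probes, which disagreed in sign.

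None of 11 tested receptors of the TNF family passed. Tnfrsf9, the costimulatory receptor 4-1BB, was at its brightest probe detected in all 3 MEC1 mice, at 6.25, 8.71 and 7.90. No control mouse had that probe detected, with values of 4.99, 5.20 and 5.49. By group means this probe was at least 3.82-fold higher in MEC1 mice (adjusted p = 0.0914), a bound taken against the lowest detected signal of each control array. The bound leaves out the spread between mice, which was 1.25 in MEC1 mice (SD, n = 3). The probe passed the detection filter through the MEC1 arrays alone, so that the p gives no support of its own. Another probe of Tnfrsf9 was detected in 1 control mouse and in no MEC1 mouse, with means of 5.29 in MEC1 and 5.59 in control mice. The remaining probe of Tnfrsf9 was detected on no array. The remaining changes named by rule were -0.51 for Tnfrsf14, 0.92 for Ltbr, the lymphotoxin beta receptor, and 0.50 for Cd27, with adjusted p-values of 0.247 to 0.287. Every MEC1 mouse lay below every control mouse for Tnfrsf14, while the groups overlapped at the brightest probes of Ltbr and Cd27. The receptor of TWEAK, Tnfrsf12a, gave 8.68, 9.67 and 8.43 in MEC1 mice and 9.03, 9.10 and 8.68 in control mice, a change of -0.01 ± 0.32 (SE; 95% interval -0.73 to 0.71; adjusted p = 0.99). Of the genes for other proteins that bind TRAIL, Tnfrsf11b (the soluble receptor osteoprotegerin) and Tnfrsf23 were detected on no array. Tnfrsf22, a mouse decoy receptor, gave changes of -0.45 and 0.10 at the 2 probes detected in both groups, which did not pass (adjusted p = 0.491 and 0.86). Another probe of Tnfrsf22 was detected in no MEC1 mouse and in all 3 control mice, was at least 1.33-fold lower in MEC1 mice (adjusted p = 0.115), and passed the detection filter through the control arrays alone.

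**Figure D4:**
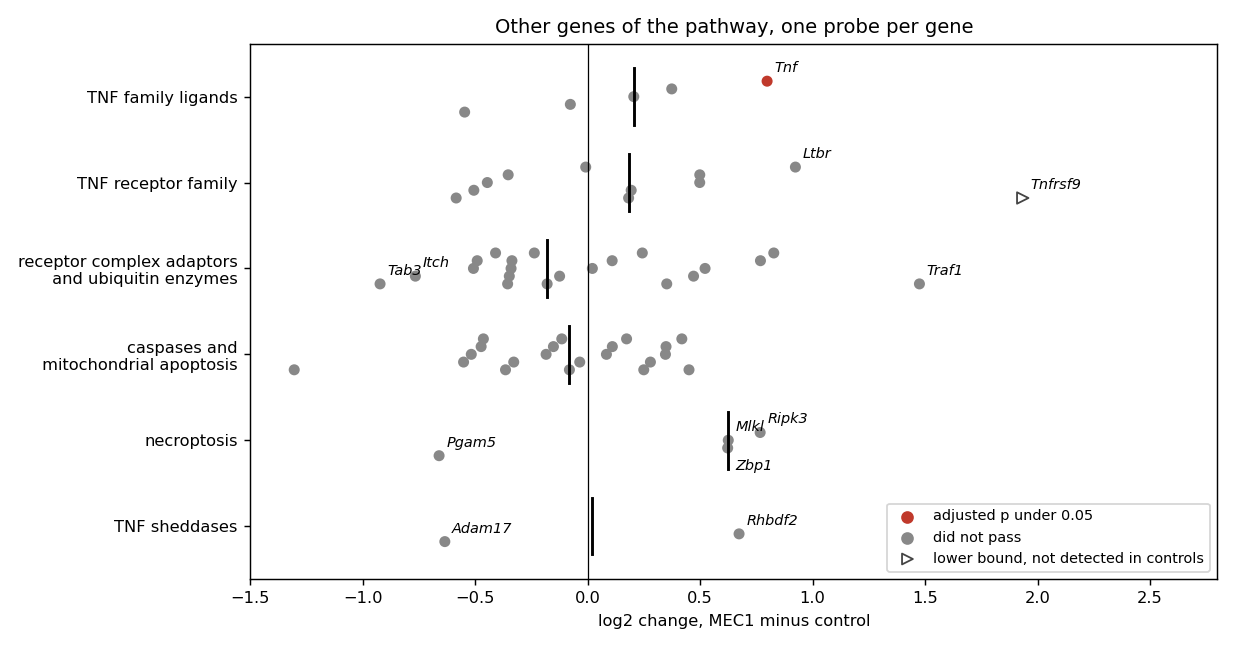
Log2 change, MEC1 minus control, of the tested genes in 6 lists around the death receptors, 1 point per gene at its brightest tested probe, with the median of each list as a black line; names are given for those genes with the smallest p in a list whose change exceeds 0.6. Tnf is the only red point, which marks an adjusted p under 0.05, and Traf1 at 1.47 did not pass. The open triangle puts Tnfrsf9 at its lower bound, since no control array detected the probe shown.

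Inside the cell, none of 21 tested adaptors and ubiquitin enzymes of the receptor complexes passed, with a median change of -0.18. Traf1, an adaptor that NF-kappaB induces, gave 7.45, 8.59 and 7.68 in MEC1 mice and 6.05, 6.79 and 6.45 in control mice. The groups did not overlap, with MEC1 mice above, as at 15% of all tested genes. The change of 1.47 ± 0.36 (SE) had an adjusted p of 0.086. It passed without mouse D (1.68, adjusted p = 0.0154) and with array weights (1.37, adjusted p = 0.0445). Those 2 fits called 6.84% and 3.53% of all tested probes, against 1.54% as reported. Tab2 and Tab3, which hold the kinase TAK1 to ubiquitin chains, gave -0.51 and -0.92, and Itch, a ubiquitin ligase that degrades c-FLIP, gave -0.77 (adjusted p = 0.142, 0.165 and 0.171). For Tab2, Tab3 and Itch every MEC1 mouse lay below every control mouse, as at 14% of all tested genes. None of 21 tested caspases and mitochondrial apoptosis genes passed either, with a median of -0.08. Bbc3, the BH3-only killer PUMA, gave -0.55 at its brightest probe and 0.76 and 0.73 at the others, so its probes disagreed in sign (adjusted p = 0.110 to 0.221). Casp2 and Bcl2l11 gave -0.47 and -0.52 and did not pass. Bcl2 gave -0.37 at its brightest probe and 0.25, -0.14, 0.26 and 0.17 at its other tested probes, which also disagreed in sign, and none passed. At the brightest probes of Bbc3, Casp2 and Bcl2 every MEC1 mouse lay below every control mouse, and at the dimmer probes of Bbc3 above.

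Necroptosis is the death that RIPK1 starts when caspase-8 is blocked, carried out by the kinase RIPK3 and the membrane-breaking protein MLKL. Ripk3 gave 9.23, 9.15 and 9.01 in MEC1 mice and 8.43, 8.67 and 7.99 in control mice, a change of 0.77 ± 0.23 (SE; adjusted p = 0.129). Mlkl gave 10.11, 9.78 and 9.90 in MEC1 mice and 9.39, 9.29 and 9.23 in control mice, a change of 0.62 ± 0.17 (SE; adjusted p = 0.115). The groups did not overlap for either gene, and MEC1 mice lay above control mice in this way at 15% of all tested genes. Zbp1, a nucleic acid sensor that binds RIPK3, gave 0.62 at its brightest probe, which did not pass (adjusted p = 0.271). A dimmer probe of Zbp1, detected in all 3 MEC1 mice and in no control mouse, was at least 1.84-fold higher in MEC1 mice (adjusted p = 0.0226). It too passed the detection filter through the MEC1 arrays alone, so that its p gives no support of its own. With the 2 probes of Tnf it made up the 3 called of the 114 probes tested in the lists, against 1.54% of all tested probes. Pgam5, a mitochondrial phosphatase, gave -0.66 (adjusted p = 0.161). The TNF-releasing protease gene Adam17 gave 9.87, 9.43 and 9.85 in MEC1 mice and 10.42, 10.26 and 10.39 in control mice, a change of -0.64 ± 0.18 (SE; adjusted p = 0.121), and Rhbdf2, which matures that protease, gave 0.67 (adjusted p = 0.287). For Pgam5 and Adam17 every MEC1 mouse lay below every control mouse, as at 14% of all tested genes.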

How the data were processed

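Per the file headers, a table deposited by the authors gives, before normalization, the average intensity of every probe on every array and its detection p-value. The submitters' processing notes name GenomeStudio. A second deposited table holds the authors' processed intensity on a linear scale, with column medians of 100.68 to 100.78. Its values keep each array's order of probes and lie within 1.69 of the mean of the sorted raw signals, as quantile normalization gives; no label states its background treatment, and it served as an alternative. All arrays lay on 1 chip, control mice at the first positions and MEC1 mice at the last, so position and group cannot be told apart.

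Intensities were normalized with neqc (offset 16, which shrinks folds of dim probes) in limma 3.58.1 under R 4.3.3, fitted with lmFit and eBayes (trend and robust variance), and adjusted by Benjamini-Hochberg over all 16460 tested probes. SE is the moderated standard error. Genes in the lists stand by their brightest tested probe. Of the 45281 probes, 34885 had 1 symbol, updated through the Entrez ID, 18 had several and 10378 none. Where a group had no detected array, the bound sets the other group's mean against that group's mean raised to each array's lowest detected value. Such a bound compares means and carries no sampling error. The named genes are all members, the 4 smallest p-values of each list, and further ligands and receptors of the members. Members and lists were chosen with earlier results of these data known. The steps were tested on simulated arrays. Alternatives covered normalization, background, offset, detection filter, variance model, array weights, averaging of probes and leaving out each mouse. Mice are separate animals, and their number limits the precision.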

Additional observations from a re-analysis of the deposited data

How the results depend on the processing

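No member probe was called as reported. The count of called member probes was 1 with no filter on detection, 1 with array weights, 1 gene with the mean over a gene's tested probes, and 0 to 1 when 1 mouse was left out, the 1 being without mouse D; each time it was Tnfrsf10b, whose adjusted p ran from 0.0077 to 0.256 over its 15 alternatives. Over all probes the 253 calls became 2111 with median scaling, 581 with array weights, 95 with no intensity trend and no robust variance, and 4 to 1094 when 1 mouse was left out (1094 without D, 32 without E, 42 without F, 4 without A, 8 without B and 4 without C). Median scaling called 130 higher and 1981 lower, against 143 and 110. Of the other pathway genes, 11 of 64 tested were called with median scaling (1 higher, Tnfrsf9), where 12.8% of all tested probes were called. With array weights 3 of 64 were called (Tnf, Traf1 and Tnfrsf9), against 3.53% of all tested probes. The counts were 0 with no filter and 0 with no intensity trend and no robust variance. Leaving out 1 mouse gave 4 of 63 without D, against 6.84% of all tested probes, and 0 without any other mouse. Tnfrsf9 passed the detection filter through the MEC1 arrays alone, so its calls give no support of their own. The call of Tnf was lost under 8 of 15 alternatives.

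Signs turned only at uncalled values. Under median scaling they were -0.31 for the brighter probe of Fas, -0.23 and -0.072 for Casp8, -0.27, -0.30 and -0.25 for Fadd and -0.11 for Cflar. With array weights they were 0.10, 0.19 and 0.20 for Tnfrsf1a. When 1 mouse was left out, the probes of Tnfrsf1a ranged from -0.49 to 0.35, -0.48 to 0.43 and -0.41 to 0.43, the dimmer probe of Fas from -0.85 to 0.35, and probes of Tnfrsf1b from -0.84 to 0.00330 and -0.84 to 0.15. No paired analysis was possible because the mice carry letters that the groups do not share. At 3 mice a group and with 11 member probes below the detection filter, changes of dim genes such as Tnfsf10 were not measurable.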
